A study of Mus musculus with 10 samples.

Results

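The BCL2 family of survival and death factors was examined in CD4+ spleen cells of 2 mouse strains, B10 and NOD, in the unstimulated state (T0) and after stimulation (T1). Its members were taken from a list of 10 gene symbols, namely Bcl2, Bcl2l1, Mcl1, Bax, Bak1, Bcl2l11, Bid, Bad, Bbc3 and Pmaip1. Each was looked up among the probe sets that carry 1 gene symbol, and the probe set with the highest mean was kept for each symbol. This gave 9 measured members among 19938 genes tested, and Bax was not analysed here. The rule used no difference between groups, but the list was chosen with earlier results of these data known.

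The arrays measured total RNA on 10 Affymetrix chips, 3 for each strain at T0 (replicates 1 to 3) and 2 for each strain at T1 (replicates 2 and 3). The B10 mice were of the genotype labelled B10Br and the NOD mice of the genotype labelled NODk, all were female, and all were 8 weeks old. Spleen cells were enriched for CD4 on magnetic beads (AutoMACS), so the chips measured a bulk population and not single cells. The T1 cells received PMA at 10 ng/ml, which activates protein kinase C, and ionomycin at 1 uM, which raises intracellular calcium, for 4 hours, a pairing used in place of T cell receptor and CD28 signals. The labels can be read as saying that the T0 cells were held in culture without stimulation for the same time, or that they were taken directly, so time in culture and stimulation cannot be told apart here. They call the replicates biological without naming an animal for each, so the p-values below measure the spread between these chips. The design compares the states within each strain and the strains within each state.

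Mitochondrial cell death is decided by contacts among BCL2 proteins. The guardians BCL2, BCL-XL (from Bcl2l1) and MCL1 hold in check the effectors BAX and BAK (from Bak1), which otherwise open the outer mitochondrial membrane and release cytochrome c. BH3-only proteins, among them BIM (from Bcl2l11), BID, BAD, PUMA (from Bbc3) and NOXA (from Pmaip1), bind the guardians or trigger the effectors. Resting T cells are known to depend on BCL2, kept up by interleukin 7 signals, and on MCL1, while activated T cells induce BCL-XL, and BIM removes T cells when a response ends. BCL-XL also keeps maturing red cell precursors alive.

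The start-site sequences of the 5 members that changed on stimulation and of Bcl2l11 are shown because they are the start-site DNA of the genes on which the results turn. The RefSeq promoter table (mouse build GRCm38.p6) held 14 windows for 8 of the 9 measured members, each from 250 bases before a transcription start to 50 bases from it on, and no window was read for Pmaip1. Each window is given 5′ to 3′ on the strand of its gene. Capitals mark matches to motifs of the factors that PMA and ionomycin are known to engage, or of FOXO, a factor that is active in resting cells. The motifs were searched on both strands, and a match on the opposite strand appears as its reverse complement (TTTCC for GGAAA). They were GGAAA (NFAT), TGANTCA (AP-1), TGACGTCA (CRE), GTAAACA (FOXO) and the NF-kB decamer. Where a gene had several windows, the one shown is that with the most matches.
Bcl2l1, window 2 of 3, chr2:152830668-152830967, minus strand: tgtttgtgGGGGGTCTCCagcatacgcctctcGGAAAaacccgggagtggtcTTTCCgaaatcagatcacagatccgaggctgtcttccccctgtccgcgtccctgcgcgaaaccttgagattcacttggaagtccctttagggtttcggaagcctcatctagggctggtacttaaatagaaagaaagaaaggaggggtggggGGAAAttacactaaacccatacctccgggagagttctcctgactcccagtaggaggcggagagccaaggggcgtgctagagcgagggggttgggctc
Bid, chr6:120916775-120917074, minus strand: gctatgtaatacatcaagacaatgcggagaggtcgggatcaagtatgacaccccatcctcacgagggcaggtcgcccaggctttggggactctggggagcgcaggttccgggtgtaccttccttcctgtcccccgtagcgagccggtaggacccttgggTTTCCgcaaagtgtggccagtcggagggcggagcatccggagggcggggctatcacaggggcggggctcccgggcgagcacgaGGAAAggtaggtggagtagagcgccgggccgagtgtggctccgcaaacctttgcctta
Bak1, chr17:27028578-27028877, minus strand: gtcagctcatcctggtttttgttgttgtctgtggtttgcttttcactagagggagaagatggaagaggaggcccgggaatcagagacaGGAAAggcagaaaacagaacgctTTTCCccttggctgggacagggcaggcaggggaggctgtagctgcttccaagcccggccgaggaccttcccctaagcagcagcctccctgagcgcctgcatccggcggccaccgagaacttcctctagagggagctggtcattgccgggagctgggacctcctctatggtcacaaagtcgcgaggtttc
Bcl2, chr1:106714241-106714540, minus strand: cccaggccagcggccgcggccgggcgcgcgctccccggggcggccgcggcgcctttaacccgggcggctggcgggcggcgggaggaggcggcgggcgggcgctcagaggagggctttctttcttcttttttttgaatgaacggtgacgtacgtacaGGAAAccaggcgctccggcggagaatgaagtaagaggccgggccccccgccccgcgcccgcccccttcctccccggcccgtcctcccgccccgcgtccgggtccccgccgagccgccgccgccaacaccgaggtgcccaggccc
Mcl1, chr3:95658471-95658770, plus strand: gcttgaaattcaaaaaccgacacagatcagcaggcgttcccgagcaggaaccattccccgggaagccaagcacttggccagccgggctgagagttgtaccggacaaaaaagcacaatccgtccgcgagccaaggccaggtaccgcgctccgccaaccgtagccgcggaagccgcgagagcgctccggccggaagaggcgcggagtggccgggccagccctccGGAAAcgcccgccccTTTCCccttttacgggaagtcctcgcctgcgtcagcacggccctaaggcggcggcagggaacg
Bcl2l11, window 1 of 2, chr2:128125788-128126087, plus strand: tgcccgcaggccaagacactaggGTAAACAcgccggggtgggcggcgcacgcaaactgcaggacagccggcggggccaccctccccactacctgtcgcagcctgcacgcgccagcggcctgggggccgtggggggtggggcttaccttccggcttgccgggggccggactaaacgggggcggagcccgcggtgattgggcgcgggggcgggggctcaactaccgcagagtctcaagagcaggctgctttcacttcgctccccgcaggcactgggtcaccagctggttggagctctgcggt

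The Bcl2l1 window shown held 1 NF-kB match, from -242 to -233 relative to the start, and 3 NFAT matches, at -218, -198 and -47. Bcl2l1 windows 1 and 3 held 1 and 2 NFAT matches and no NF-kB match, and Bcl2l11 window 2 held no match. Among all 32851 windows of the table, 4.51% held the NF-kB motif and 61.3% the NFAT motif. These shares count every window, whereas the Bcl2l1 and Bcl2l11 windows shown were picked for their matches, so the comparison is uneven. The short NFAT motif was in the windows of members that rose (Bid 2 matches, Bak1 2) and of members that fell (Bcl2 1, Mcl1 2) alike. The FOXO motif, in 3.65% of all windows, was found in Bcl2l11 window 1 from -227 to -221 and in Bbc3 window 2 from -167 to -161. Bbc3 window 1 had 2 NF-kB matches that overlapped each other and an NFAT match. None of the 14 windows held the AP-1 motif or the CRE, which 7.81% and 1.79% of all windows hold. These matches describe the letters of the windows and not sites shown to be bound.

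On stimulation 5 of the 9 measured members changed, and they were the same 5 with the same sign in both strains. Levels of the guardian Bcl2l1 went up 4.69-fold (B10) and 4.22-fold (NOD), while the guardians Bcl2 and Mcl1 fell. The BH3-only gene Bid and the effector Bak1 rose. A change was counted where the adjusted p was under 0.05 (limma, Benjamini-Hochberg over all genes tested), and in B10 this held for 31.8% of all genes, 13.7% higher and 18.1% lower. In NOD it held for 35.5%, 16.1% higher and 19.5% lower. The share of all genes that passed with the same sign in both strains was not counted, so the shared calls are not shown to be particular to the family. The members' counts were 3 higher and 2 lower in each strain, and at an unadjusted p under 0.05 the totals were 6 members in B10 and 5 in NOD. The median log2 change over the 9 members was -0.11 in B10 and 0.03 in NOD, beside 0.03 and 0.08 over all genes, so the family as a whole did not move one way.

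**Figure D1:**
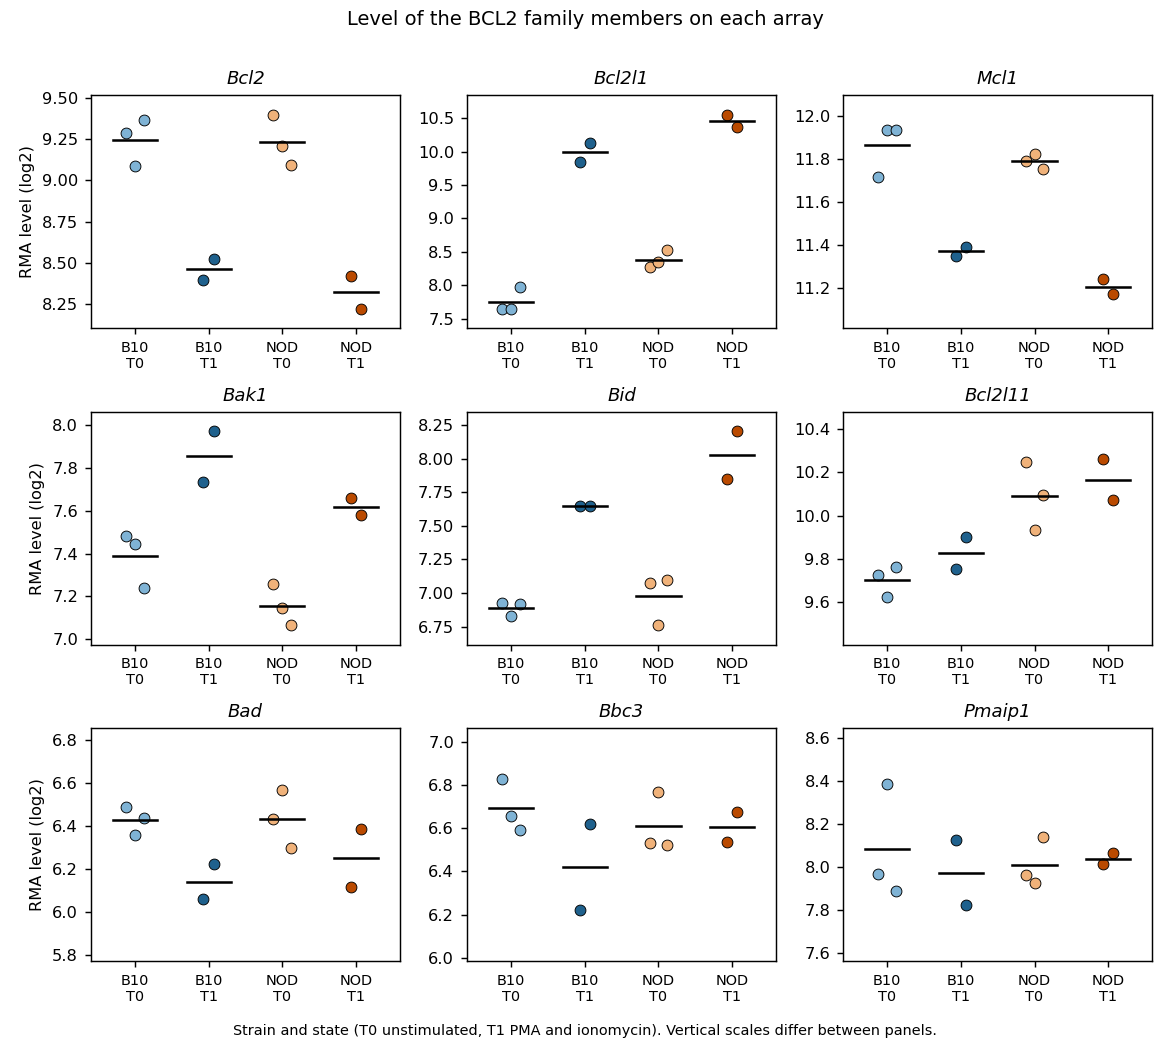
RMA level (log2) of the 9 measured BCL2 family members on each of the 10 arrays, 1 panel per gene, with groups by strain and state on the horizontal axis. Points are arrays and bars are group means; vertical scales differ between panels. Bcl2l1, Bid and Bak1 were higher, and Bcl2 and Mcl1 lower, on every T1 array than on every T0 array of the same strain. Bad was also lower on every T1 array in B10, though it did not pass, and overlapped in NOD. How many of all genes separate in this way was not counted.

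Among the guardians, Bcl2l1 had the largest change. Its log2 level at T0 was 7.65, 7.65 and 7.97 on the B10 arrays and 8.27, 8.35 and 8.53 on the NOD arrays. At T1 it was 9.84 and 10.13 in B10 and 10.55 and 10.37 in NOD. The 4 groups did not overlap, and their order was B10 at T0, NOD at T0, B10 at T1 and NOD at T1. The log2 change on stimulation was 2.23 ± 0.13 (SE, 95% confidence interval 1.94 to 2.52, n = 3 and 2 arrays, limma adjusted p = 6.44e-08) in B10. In NOD it was 2.08 ± 0.13 (1.78 to 2.37, limma adjusted p = 1.17e-07). In a bulk population, a change of a transcript within each cell and a change in the share of cells that carry it cannot be told apart, here and for every value below.

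Bcl2, the founding guardian, ran the other way. It stood at log2 levels of 9.28, 9.08 and 9.36 in B10 and 9.40, 9.21 and 9.09 in NOD at T0. At T1 it stood at 8.40 and 8.53 in B10 and 8.42 and 8.22 in NOD. Every T1 array was below every T0 array, and the strains overlapped in each state. Bcl2 fell by 0.78 ± 0.12 (SE, limma adjusted p = 0.000228) on the log2 scale in B10, which is 1.72-fold lower. In NOD it fell by 0.91 ± 0.12 (limma adjusted p = 6.49e-05), which is 1.88-fold lower.

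Mcl1, a guardian with a short-lived protein, fell as well. Its log2 level at T0 was 11.72, 11.93 and 11.93 in B10 and 11.79, 11.82 and 11.75 in NOD, and at T1 it was 11.35 and 11.39 in B10 and 11.24 and 11.18 in NOD. All T1 arrays lay below all T0 arrays, while the strains overlapped at T0. Mcl1 fell by 0.49 ± 0.10 (SE, limma adjusted p = 0.00154) in B10 and by 0.58 ± 0.10 (limma adjusted p = 0.000427) in NOD on the log2 scale. These are 1.41-fold and 1.50-fold lower levels.

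Of the effectors, Bak1 was measured. Its log2 level at T0 was 7.48, 7.45 and 7.24 in B10 and 7.26, 7.15 and 7.07 in NOD. At T1 it was 7.74 and 7.97 in B10 and 7.66 and 7.58 in NOD. Within each strain the T1 arrays were all above the T0 arrays. The change was 0.46 ± 0.11 (SE, 0.217 to 0.711, limma adjusted p = 0.00616) in B10 and 0.46 ± 0.11 (0.215 to 0.709, limma adjusted p = 0.00628) in NOD. Without the B10 T1 array of replicate 3 the B10 change was 0.35 and no longer passed (limma adjusted p = 0.0941), and without both B10 arrays of replicate 3 it was 0.27 (adjusted p = 0.211).

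Among the BH3-only genes, Bid alone passed the test on stimulation. BID links the death receptors to mitochondria once caspase 8 has cut it. Its log2 level at T0 was 6.92, 6.83 and 6.92 in B10 and 7.08, 6.76 and 7.10 in NOD, and at T1 it was 7.65 and 7.65 in B10 and 7.85 and 8.21 in NOD. The states did not overlap in either strain, and the strains overlapped at T0. Bid rose by 0.76 ± 0.13 (SE, 0.477 to 1.04, limma adjusted p = 0.000445) in B10, or 1.69-fold, and by 1.05 ± 0.13 (0.767 to 1.33, limma adjusted p = 3.03e-05) in NOD, or 2.07-fold.

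Bcl2l11, which encodes BIM, did not pass on stimulation. It stood at log2 levels of 9.72, 9.62 and 9.76 at T0 and 9.75 and 9.90 at T1 in B10, and at 10.25, 9.93 and 10.10 at T0 and 10.26 and 10.07 at T1 in NOD. The states overlapped in both strains. The T1 minus T0 difference was 0.13 (95% confidence interval -0.126 to 0.377) in B10 and 0.07 (-0.177 to 0.325) in NOD.

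The other BH3-only genes had small differences. Bad, whose protein binds BCL2 and BCL-XL when it is not phosphorylated, stood at 6.49, 6.36 and 6.44 at T0 and 6.06 and 6.22 at T1 in B10. In NOD its log2 levels were 6.43, 6.57 and 6.30 at T0 and 6.11 and 6.39 at T1. The B10 states did not overlap and the NOD states did. The difference was -0.29 (-0.542 to -0.0322, limma adjusted p = 0.0862) in B10 and -0.18 (-0.437 to 0.0727, limma adjusted p = 0.252) in NOD, and the B10 value passed (adjusted p = 0.0474) when only genes above the median level were tested.

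Bbc3 encodes PUMA, a BH3-only protein best known as a target of p53. Its log2 levels were 6.83, 6.66 and 6.59 at T0 and 6.22 and 6.62 at T1 in B10, and 6.53, 6.77 and 6.52 at T0 and 6.54 and 6.68 at T1 in NOD. The states overlapped in both strains. The difference was -0.27 (-0.563 to 0.0182) in B10 and -0.00 (-0.293 to 0.288) in NOD. The B10 value depended on each T1 array: without that of replicate 2 it was -0.07 (limma adjusted p = 0.803), without that of replicate 3 it was -0.47 and passed (adjusted p = 0.0327), and without both B10 arrays of replicate 3 it was -0.52 (adjusted p = 0.0326).

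Pmaip1 encodes NOXA, which binds MCL1. Its log2 levels were 7.97, 8.39 and 7.89 at T0 and 8.12 and 7.82 at T1 in B10, and 7.96, 7.92 and 8.14 at T0 and 8.01 and 8.06 at T1 in NOD. The 4 groups overlapped. The difference on stimulation was -0.11 (-0.428 to 0.213) in B10 and 0.03 (-0.292 to 0.349) in NOD. Changes within those intervals remain compatible with these arrays.

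**Figure D2:**
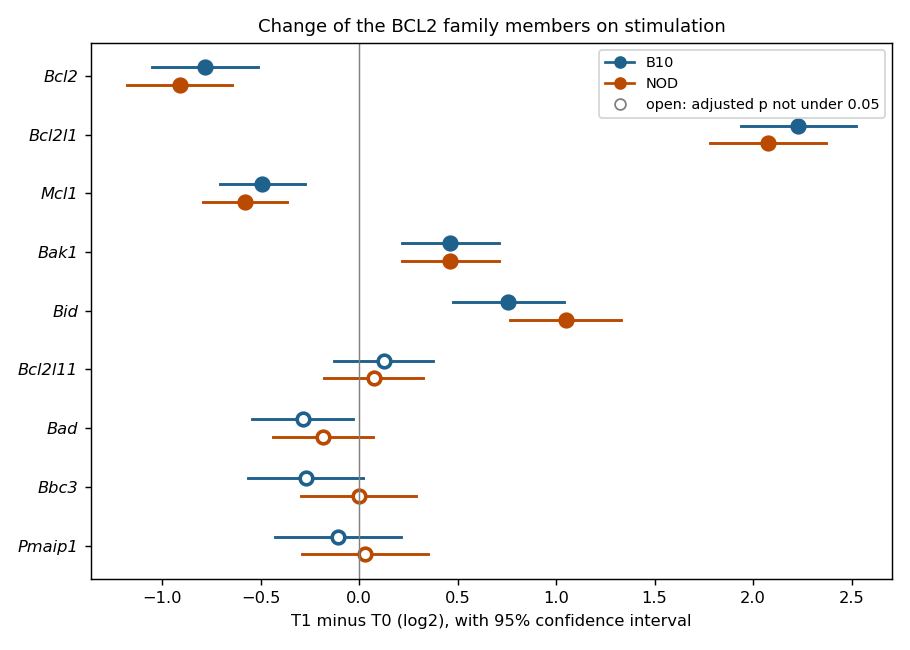
Change of each member on stimulation (T1 minus T0, log2) with its 95% confidence interval, for B10 and NOD. Filled points have an adjusted p under 0.05; Bcl2l1 lies farthest from 0, at 2.23 in B10 and 2.08 in NOD, and Bcl2l11, Bad, Bbc3 and Pmaip1 are open in both strains.

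No member's change on stimulation was shown to differ between the strains. In the test of the difference itself (the interaction of strain and stimulation) 0 of 9 members passed with limma, none had an unadjusted p under 0.05, and 0.246% of all genes passed. For Bid the NOD change minus the B10 change was 0.29 (95% confidence interval -0.108 to 0.688, limma adjusted p = 0.665), and it was 0.11 without the NOD T1 array of replicate 3 and 0.47 without that of replicate 2. For Bbc3 it was 0.27 (-0.141 to 0.68, limma adjusted p = 0.693), with values from 0.07 without the B10 T1 array of replicate 2 to 0.47 without that of replicate 3, and 0.52 without both B10 arrays of replicate 3. For Bcl2l1 the NOD change minus the B10 change was -0.15 (-0.568 to 0.258), for Bcl2 it was -0.13 (-0.505 to 0.25), for Mcl1 it was -0.09 (-0.392 to 0.214) and for Bak1 it was -0.00 (-0.351 to 0.347).

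Markers of other cell types moved with stimulation too. In B10 8 of 9 measured monocyte and macrophage markers were lower at T1, with a list mean of 7.57 to 8.01 at T0 and 6.39 to 6.62 at T1 (log2, range over arrays), and in NOD 8 of 9 were lower, from 8.22–8.46 to 6.69–6.99. Of 8 B cell markers, 5 were lower and 1 higher in B10 (8.22 to 8.49 at T0, 7.31 to 7.36 at T1) and 6 were lower in NOD (8.49 to 8.80 at T0, 7.14 at T1 on both arrays). Of 10 neutrophil markers 5 were lower in B10 and 7 in NOD. The CD4 T cell list itself had 4 of 6 markers lower in each strain and 1 higher in NOD, from 10.8–10.9 to 9.87–9.99 in B10 and from 10.7–10.8 to 9.63–9.89 in NOD, and Cd4, the gene of the selected surface protein, fell by 1.46 in B10 and by 1.72 in NOD on the log2 scale. The part of these shifts in the members' changes was not tested.

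Between strains at T0, 2 of 9 members passed, Bcl2l1 and Bcl2l11, both higher in NOD, beside 5.79% of all genes, 3.44% higher in NOD and 2.35% lower. At an unadjusted p under 0.05 it was 3 members. The median NOD minus B10 difference was -0.01 over the members and -0.01 over all genes. At T1, 0 of 9 members passed with limma (3 at an unadjusted p under 0.05), beside 3.6% of all genes, and the members' median was 0.11 against 0.01 over all genes.

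Bcl2l1 was 1.54-fold higher in NOD at T0, a log2 difference of 0.63 ± 0.12 (SE, 0.364 to 0.887, limma adjusted p = 0.00842). All 3 NOD arrays lay above all 3 B10 arrays. At T1 the difference was 0.47 ± 0.15 (0.151 to 0.791, limma adjusted p = 0.11), again with every NOD array above every B10 array, and it did not pass. With 2 arrays per strain at T1, separation of the arrays says little, here and for the members below. Its share over all genes was not counted. The T0 difference did not pass without the NOD T0 array of replicate 3, at 0.55 (adjusted p = 0.0514). Without both B10 arrays of replicate 3 it was 0.73 (adjusted p = 0.00348).

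Bcl2l11 was 1.31-fold higher in NOD at T0, by 0.39 ± 0.10 on the log2 scale (SE, 0.166 to 0.616, limma adjusted p = 0.0455), and the strains did not overlap. This value sat just inside the threshold: it passed in 3 of 10 fits that each left out 1 array. It did not pass without any 1 of the B10 T0 arrays of replicate 1, 2 or 3, the B10 T1 arrays of replicate 2 or 3, or the NOD T0 arrays of replicate 1 or 3, with differences between 0.31 and 0.42 and adjusted p between 0.0508 and 0.194. At T1 the difference was 0.34 (0.0644 to 0.615, limma adjusted p = 0.188), with both NOD arrays above both B10 arrays.

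The remaining members gave no strain difference that passed. Bak1 was -0.23 (-0.454 to -0.0125, limma adjusted p = 0.279) for NOD minus B10 at T0 and -0.23 (-0.505 to 0.0353, adjusted p = 0.388) at T1, where both NOD arrays were below both B10 arrays. With arrays weighted by their fit, the T0 difference of Bak1 was -0.29 and passed (adjusted p = 0.0422). Bid was 0.09 (-0.164 to 0.339) at T0 and 0.38 (0.0697 to 0.686, limma adjusted p = 0.191) at T1, with both NOD arrays higher at T1. Mcl1 was -0.07 (-0.265 to 0.118) at T0 and -0.16 (-0.397 to 0.0724) at T1, where both NOD arrays were lower. For Bcl2 the intervals were -0.251 to 0.227 at T0 and -0.432 to 0.153 at T1. Bad, Bbc3 and Pmaip1 overlapped between strains in both states, with differences from -0.08 to 0.01 at T0 and from 0.06 to 0.19 at T1.

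**Figure D3:**
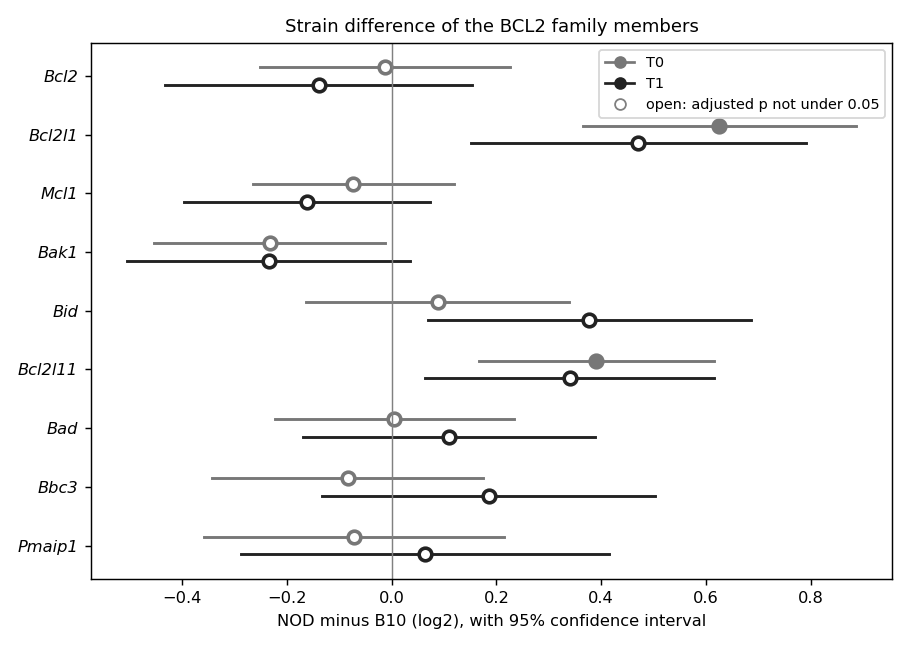
NOD minus B10 difference (log2) of each member at T0 and at T1, with its 95% confidence interval. Filled points have an adjusted p under 0.05; these are Bcl2l1 (0.63) and Bcl2l11 (0.39) at T0, and every T1 point is open.

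Red cell precursor markers differed between the strains and between the B10 replicates. The mean log2 level of the 4 measured erythroid markers (Alas2, Klf1, Car2 and Rhag) ran from 6.75 to 9.15 over the B10 T0 arrays and from 9.92 to 10.5 over the NOD T0 arrays, and from 7.21 to 9.28 and 10.1 to 10.6 at T1. All 4 were higher in NOD at T0, with a median difference of 2.50, and at T1 none of the 4 passed with limma although all 4 had an unadjusted p under 0.05. Within B10, replicate 3 had the highest erythroid mean in each state, 9.15 at T0 and 9.28 at T1, and also the highest B10 levels of Bcl2l1 (7.97 and 10.13) and of Bcl2l11 (9.76 and 9.90). Bcl2, which had no strain difference that passed, was also highest on B10 replicate 3 in each state (9.36 and 8.53), and Pmaip1 was lowest there (7.89 and 7.82). For Bcl2l1 and Bcl2l11 the NOD arrays did not follow that order throughout. At T1 replicate 3 had the higher erythroid mean (10.6 against 10.1) and the lower levels of Bcl2l1 (10.37 against 10.55) and Bcl2l11 (10.07 against 10.26). At T0 the highest erythroid mean (10.5) and the highest Bcl2l1 (8.53) were on replicate 3, and the highest Bcl2l11 (10.25) was on replicate 1. The erythroid covariate in the fits was the mean of 3 of these markers, Alas2, Klf1 and Car2, without Rhag. With it, the T0 strain difference was 0.29 ± 0.17 (limma adjusted p = 0.707) for Bcl2l1 and 0.23 (adjusted p = 0.815) for Bcl2l11, and neither passed. The erythroid means of the strains did not overlap in either state, so the erythroid level and the strain cannot be told apart with these arrays. The stimulation change of Bcl2l1 with the covariate was 2.18 in B10, and the erythroid list had 0 of 4 markers past the threshold on stimulation in either strain. Of 9 monocyte and macrophage markers 4, and of 10 neutrophil markers 4, were also higher in NOD at T0. Their part in the strain differences was not tested.

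**Figure D4:**
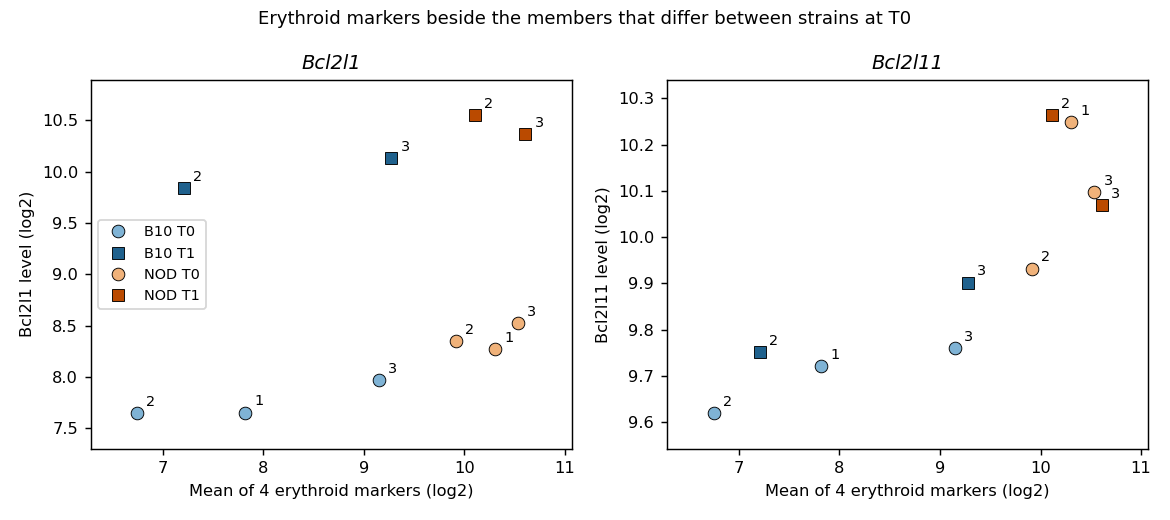
Log2 level of Bcl2l1 (left) and Bcl2l11 (right) on each array against the mean log2 level of 4 erythroid markers on the same array; circles are T0, squares T1, numbers are replicates. The NOD arrays sit at 9.92 or more on the horizontal axis, the B10 arrays at 9.28 or less, and B10 replicate 3 lies nearest to NOD in each state.

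The rest of the BCL2 family was followed through 13 measured genes of 17 listed. In B10 1 rose and 4 fell, beside 13.7% and 18.1% of all genes, and in NOD 1 rose and 2 fell, beside 16.1% and 19.5%. The medians were -0.08 and 0.02. The same shares of all genes apply to the stimulation counts of the next 3 lists. Bcl2a1c, of the A1 guardian genes that NF-kB induces in lymphocytes, rose by 0.77 ± 0.24 (limma adjusted p = 0.0268) in B10 and 0.79 ± 0.24 (adjusted p = 0.0224) in NOD. The A1 genes are near-identical copies, so its signal may include the others, and 3 probe sets listed for several of them were left out. Its change did not pass in B10 without the T0 array of replicate 3 (0.52, adjusted p = 0.0927) or the T1 array of replicate 2 (0.39, adjusted p = 0.34). In NOD it did not pass without the T0 array of replicate 1 or 2 or either T1 array (0.71 to 0.81, adjusted p 0.0649 to 0.0961). Bnip3, a mitochondrial relative linked to mitophagy, fell by 0.78 in B10 and by 1.06 in NOD on the log2 scale. Its B10 change was -0.35 (adjusted p = 0.0782) as the mean of all its probe sets. Bmf, a BH3-only gene, fell by 0.79 in B10 (-0.72, adjusted p = 0.0671, without the T1 array of replicate 3) and differed by -0.12 in NOD. Between strains 1 of the 13 genes was higher in NOD at T0 and 1 at T1, beside 3.44% and 1.77% of all genes. The first was Bnip3, 0.71 higher (limma adjusted p = 0.00763; 0.70 and 0.281 with the erythroid covariate). Bnip3l, which helps reticulocytes discard mitochondria, fell by 1.44 in B10, differed by -0.40 in NOD (which passed, at adjusted p = 0.00872, without the B10 T1 array of replicate 2 or 3), and was 1.53 higher in NOD at T1 (limma adjusted p = 0.00128). Bcl2l13 fell by 0.53 in B10 and by 0.39 in NOD, the latter not passing without the NOD array of replicate 1 or 3 at T0 or of replicate 2 or 3 at T1 (-0.30 to -0.44, adjusted p 0.0532 to 0.134). Bcl2l2, the guardian BCL-W, differed by -0.17 and -0.08 and did not pass. In the interaction test 0 of these 13 genes passed with limma, and 0 in each of the next 3 lists, beside 0.246% of all genes. At an unadjusted p under 0.05 it was 2 in each of the 4 lists. The NOD change minus the B10 change was 0.67 (limma adjusted p = 0.506) for Bmf and 1.05 (adjusted p = 0.151) for Bnip3l. The Bnip3l value passed with the erythroid covariate (1.10, adjusted p = 0.0247). It was 1.45 without the B10 T1 array of replicate 3 and 1.39 without both B10 arrays of replicate 3, which leave 1 B10 T1 array. No alternative other than these changed its call.

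Downstream of the members, 16 of 18 genes of caspases and mitochondrial release were measured. In B10 2 rose and 5 fell, and in NOD 2 rose and 8 fell, with medians of -0.07 and -0.21. Cytochrome c (Cycs) rose by 1.35 ± 0.14 in B10 and 0.90 ± 0.14 in NOD. Its partners in the apoptosome went down: Apaf1, the scaffold, fell by 1.28 in B10 and by 1.25 in NOD, and Casp9, the initiator caspase, fell by 0.60 and by 0.52. Casp2 fell by 0.91 and by 0.86, and Birc2, which encodes the inhibitor cIAP1, fell by 0.60 and by 0.96, the B10 value being -0.49 (adjusted p = 0.0832) without the B10 T1 array of replicate 2. No gene of this list passed between strains at T0 or T1 with limma (3 and 1 at an unadjusted p under 0.05), beside 5.79% and 3.6% of all genes.

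The death receptor route, which reaches the family through Bid, had 12 of 13 genes measured. On stimulation 3 rose and 2 fell in B10, and 4 rose and 2 fell in NOD, with medians of -0.08 and 0.01. In the interaction test 0 of the 12 passed, so no change was shown to differ between the strains. Tnf rose by 1.85 ± 0.10 in B10 and 2.04 ± 0.10 in NOD. Fas, the receptor, rose by 1.47 and 1.63. Cflar, whose product blocks caspase 8, rose by 1.51 and 1.57, whereas Casp8 itself fell by 0.47 and by 0.40 (in NOD -0.34, adjusted p = 0.068, without the T1 array of replicate 3, and in B10 -0.43, adjusted p = 0.064, without both arrays of replicate 3). The adaptor Fadd fell by 1.00 in NOD and differed by -0.45 in B10 (adjusted p = 0.0511, passing without the B10 T0 array of replicate 2, the B10 T1 array of replicate 3 or the NOD T0 array of replicate 3, at 0.0228 to 0.039), and the receptor Tnfrsf1b rose by 0.62 in NOD and differed by -0.03 in B10.

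At T0, 7 of the 12 death receptor genes were lower in NOD and none was higher, with a median of -0.45, beside 2.35% of all genes lower. The list was chosen with earlier results of these data known, so setting its count beside that share is no independent test. The largest differences were those of Tnfrsf1b (-0.61), Tnfsf10, the TRAIL ligand (-0.60), Tnf (-0.54) and Fasl, the Fas ligand (-0.53). The count was 2 without the NOD T0 array of replicate 3, 4 without the B10 T0 array of replicate 2, 6 without both B10 arrays of replicate 3 and 0 with the erythroid covariate. The NK cell list had 2 of 6 markers lower in NOD at T0, with list means of 5.81 to 5.94 in B10 and 5.43 to 5.53 in NOD. Of the 2 CD8 T cell markers, Cd8b1 was lower in NOD at T0 (-0.49, limma adjusted p = 0.0305), with list means of 7.13 to 7.35 in B10 and 6.85 to 6.98 in NOD. The part of these markers in this count was not tested. Tnf passed in all 10 fits that left out 1 array. Tnfrsf1b did not pass without the B10 T0 array of replicate 1 or 2 or any 1 of the NOD T0 arrays, Tnfsf10 without the B10 T0 array of replicate 2 or the NOD T0 array of replicate 1 or 3, and Fasl without the B10 T0 array of replicate 1 or the NOD T0 array of replicate 3. At T1 only Fasl of the 12 passed (-0.61, limma adjusted p = 0.0223), beside 1.83% of all genes lower. It was -0.48 without the B10 T1 array of replicate 2 and -0.51 without the NOD T1 array of replicate 3. Fasl did not pass at T1 with the erythroid covariate (-0.46, adjusted p = 0.367) or in a fit of the compared groups alone (adjusted p = 0.137).

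Among regulators of the members, 19 of 20 listed genes were measured. In B10 2 rose and 7 fell, and in NOD 2 rose and 8 fell, with medians of -0.25 and -0.18. The interleukin 7 receptor chain Il7r, whose signal maintains Bcl2 in resting T cells, fell by 2.49 ± 0.15 in B10 and by 3.12 ± 0.15 in NOD. Foxo3, which can activate Bcl2l11 and Bbc3, fell by 1.20 in B10 and by 0.54 in NOD (adjusted p = 0.0226, but 0.0566 to 0.0876 without the NOD array of replicate 1 or 3 at T0 or of replicate 2 or 3 at T1), and was 0.89 higher in NOD at T1 (limma adjusted p = 0.0198). That T1 difference was 0.55 (adjusted p = 0.144) without the B10 T1 array of replicate 2 and did not pass without the NOD T1 array of replicate 2 or 3 (adjusted p 0.055 and 0.0981). With the erythroid covariate it was 0.41 (adjusted p = 0.413), and in a fit of the compared groups alone its adjusted p was 0.129. Pim1, a kinase that can phosphorylate BAD, rose by 1.55 and 1.27. Ppp3ca, the calcineurin catalytic chain, fell by 1.37 and by 1.18, and Mapk9, the kinase JNK2, fell by 1.00 and by 1.06. Btrc, part of a ubiquitin ligase, was 0.55 higher in NOD at T0 (limma adjusted p = 0.0396) and 0.04 higher (adjusted p = 0.978) with the erythroid covariate. It did not pass without any 1 of the 6 T0 arrays except B10 replicate 3 (adjusted p 0.051 to 0.173 in the others).

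Bcl2l1 was the only member that changed by at least 1 on the log2 scale in both strains, so the genes with the most similar course were sought for it, by Pearson correlation over the 10 arrays. They were Snx9 (r = 0.994), Ube2g2 (0.992), Sqle (0.991), Dhx37 (0.989) and Gadd45g (0.989). Their log2 changes in B10 and NOD were 1.41 and 1.32 for Snx9, 1.06 and 0.98 for Ube2g2, 2.12 and 1.84 for Sqle, 1.35 and 1.35 for Dhx37, and 1.22 and 1.33 for Gadd45g. The arrays share 4 groups, so these coefficients mostly describe the same step between states.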

How the data were processed

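RNA was measured on Affymetrix arrays. The authors' deposited table holds log2 values per probe set, made with RMA in Affymetrix Power Tools per the submitters' processing notes; the log base was read from the range of the values. Of 35486 probe sets, 21789 carried 1 symbol, 1621 several and 12076 none, giving 19938 genes, each by its probe set with the highest mean. RMA compresses low signals, so changes of dim probe sets are understated. Array medians ran from 6.176 to 6.229, and the number of arrays (10) limits the precision.

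One limma model (version 3.58.1, R 4.3.3) with 4 group means was fitted to all 10 arrays (6 residual degrees of freedom), tests were two-sided, and p-values were adjusted by Benjamini-Hochberg within each of 5 contrasts, with a threshold of 0.05. The script was tested on simulated data. The stimulation and strain contrasts share arrays. The members, gene lists and markers were chosen with earlier results of these data known. Outside the members, at most 4 genes per list and contrast are named, those with the largest change past the threshold, plus Bcl2a1 genes, Bcl2l2 and Bmf. The other listed genes without a value were not analysed here.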

Additional observations from a re-analysis of the deposited data

How the results depend on the processing

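Over 21 alternatives (a common 75th percentile, mean or every probe set, a level filter, trended eBayes, array weights, replicate blocks, an erythroid covariate, fewer arrays), 42 of 936 member values changed sign, 0 of them of a called value, 15 calls were lost and 4 gained. The counts of death receptor genes at T0 under these alternatives were added after seeing the data. For the 25 other named genes it was 76 of 2585, with 80 calls lost and 34 gained. Bcl2l1, Bcl2, Mcl1 and Bid passed on stimulation in both strains under all 21. At T0 the count of members differing between strains, 2 as reported, was 1 with every probe set tested, 1 without both B10 arrays of replicate 3, 0 with the erythroid covariate and 0 to 2 with single arrays left out. With array weights the T0 count was higher, since Bak1 (limma adjusted p = 0.0422) passed beside Bcl2l1 (0.000531) and Bcl2l11 (0.00484). No label names an animal, so the main fit had no replicate block. Same-numbered arrays deviated together in B10 (correlations of 0.26 and 0.252 for replicates 2 and 3). In NOD the values were -0.13 and 0.124, where pairs had to exceed 0.1 throughout. The 2 T1 deviations of a strain mirror each other, so these correlations are not independent and cannot settle whether the arrays are paired. With the replicate number as a fixed replicate block, Bcl2l11 had a limma adjusted p of 0.0549 and no other member call changed. The T0 count was then 1. At T1 and in the interaction it was 0 throughout, the interaction not being fitted on the compared groups alone.

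Over all genes, calls ran from 4876 (without both B10 arrays of replicate 3) to 9276 (every probe set) for stimulation in B10 beside 6342, and from 5915 to 9561 in NOD beside 7085. They ran from 136 (erythroid covariate) to 2316 (array weights) at T0 beside 1155, from 128 (erythroid covariate, or only the compared groups) to 923 at T1 beside 718, and from 13 to 102 for the interaction beside 49. The highest stimulation counts, 9276 and 9561, came from testing all 35486 probe sets in place of 19938 genes. On that larger base they do not show a higher share called. A common 75th percentile moved the all-gene median on stimulation in NOD to 0.21 and its split from 3201 higher and 3884 lower to 5393 and 3145. In B10 the median became 0.10 and the split 3074 and 3141. Bcl2 then changed by -0.72 in B10 and -0.78 in NOD. The causes of these shifts were not tested.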
